A study of Mus musculus with 12 samples.

Results

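Transcripts of 10 genes for fatty acyl desaturases and elongases were followed in whole mouse hearts with and without deletion of Cyb5r3 in cardiomyocytes. The genes were taken by name and Ensembl identifier from a table of 53700 genes, of which 31027 had a symbol: the stearoyl-CoA desaturases Scd1, Scd2 and Scd4, the fatty acid desaturases Fads1, Fads2 and Fads3, and the elongases Elovl1, Elovl5, Elovl6 and Elovl7. They were chosen by enzyme class, with earlier results of these data known, and 7 other genes of the class are described as a separate list. All 10 had enough reads to be tested. RNA was sequenced from 6 control mice, called ac-WT, with the genotype CYB5R3wt/wt and Myh6-CreERT2, and from 6 ac-CYB5R3–KO mice, with floxed Cyb5r3 alleles and the same Cre transgene. Both groups, aged 10 to 13 weeks, received 5 daily doses of tamoxifen at 33 mg/kg, and the hearts were collected 5 days later, so that the controls shared the Cre, the drug and the timing. The paper states that its mouse experiments after a first comparison with females used males. The Myh6 promoter drives Cre in cardiomyocytes, so that fibroblasts, endothelial cells and other cells of the heart kept Cyb5r3. In whole-heart RNA, fewer cells of a type and less RNA per cell cannot be told apart.

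Acyl-CoA desaturases sit in the membrane of the endoplasmic reticulum and insert double bonds into fatty acyl chains with oxygen and electrons. The electrons pass from NADH through cytochrome b5 reductase, the enzyme that Cyb5r3 encodes, to cytochrome b5 and on to the di-iron centre of the desaturase, and the Fads enzymes carry a cytochrome b5 domain of their own. Elongases condense an acyl-CoA with malonyl-CoA, the first step of a cycle that lengthens the chain, and so supply desaturases with substrate and take up their products. In heart muscle these enzymes shape the oleate, linoleate and arachidonate content of membrane phospholipids.

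Cyb5r3 itself was lower in every ac-CYB5R3–KO heart. Its level in TMM-normalized CPM (counts of a gene per 1000000 counted reads of its library, after edgeR's correction for composition) was 81.9, 121 and 185 at the lowest, median and highest ac-WT heart and 42.05, 52.7 and 67.4 in ac-CYB5R3–KO hearts. The groups did not overlap, and the log2 fold change was -1.22 ± 0.19 (SE, edgeR, adjusted p = 0.0450). The unadjusted p was under 0.05 in 20 of 20 other analyses and the adjusted p in 10. The adjusted p was between 0.0650 and 0.136 without ac-WT mouse 3 or 5 or without any 1 of ac-CYB5R3–KO mice 1 to 5. Over all 17847 genes tested, 18 (0.101%) had an edgeR adjusted p under 0.05 and 2614 (14.6%) had an unadjusted p under 0.05, of which 1737 (9.73% of genes) were below and 877 (4.91%) were above the controls. Libraries held 43393183 to 53754284 counted reads. The libraries of ac-WT mice 2 and 3 stood apart, with TMM factors of 0.570 and 0.723 against 0.988 to 1.22 in the other hearts. For the 10 genes and the pathway genes named below, calls or directions that changed without them are given both ways.

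Of the 10 genes, 0 passed an adjusted p under 0.05 (against 0.101% of all genes tested), and 1, Scd4, passed an unadjusted p under 0.05 (against 14.6%). Scd4 was lower in ac-CYB5R3–KO hearts (against 9.73% of all genes that were lower), and 0 genes were higher (against 4.91%). The share called among the desaturases and elongases was near that of all genes. The log2 fold change was above 0 for 6 genes and below 0 for 4, with a median of 0.03 against -0.01 over all genes tested. For 5 of the 10 genes, Scd1, Fads1, Fads2, Elovl1 and Elovl5, the 95% interval of the log2 fold change lay within 0.5 of 0 on either side, whereas for Scd2, Fads3, Elovl6 and Elovl7 it reached further.

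**Figure D1:**
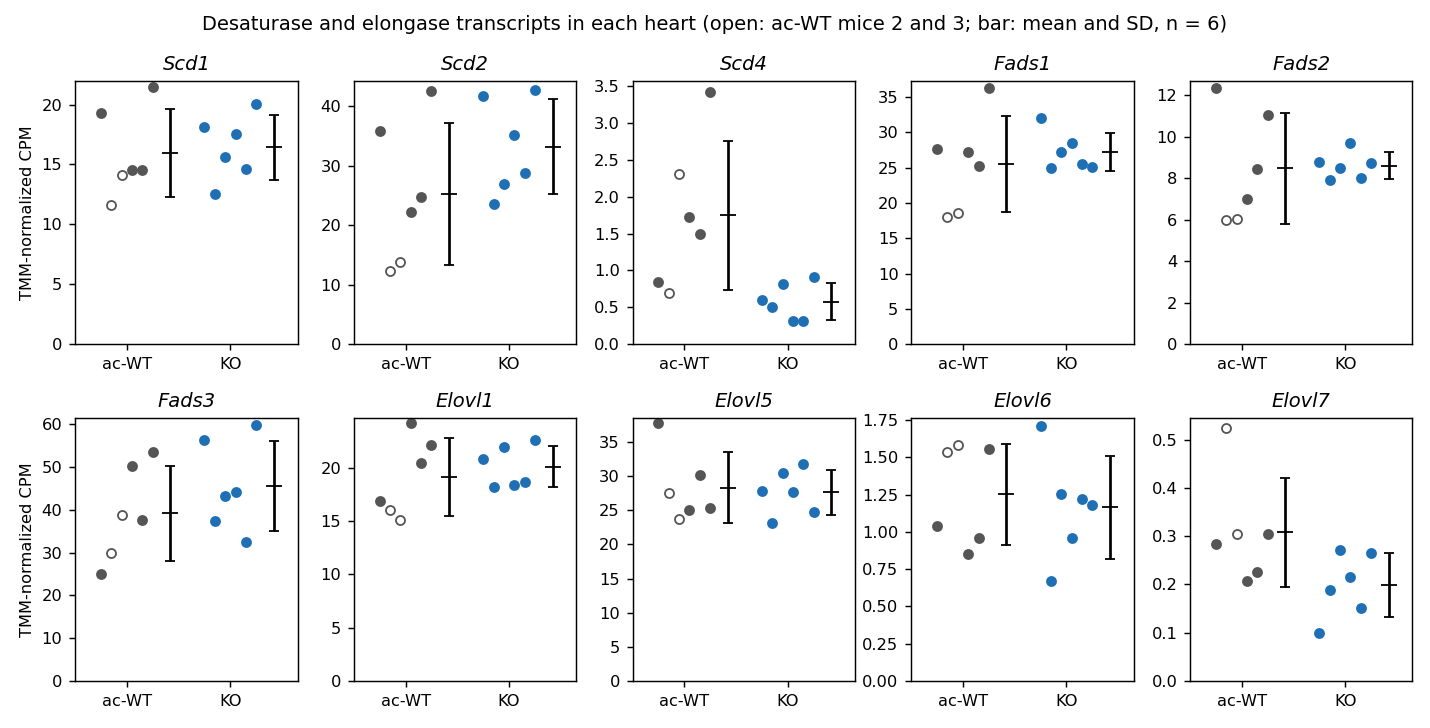
TMM-normalized CPM of each desaturase and elongase in each heart (1 point per mouse, in order of mouse number within each group, KO is ac-CYB5R3–KO, bar, mean and SD, n = 6). Open points are ac-WT mice 2 and 3. Scd4 lies between 0.314 and 0.916 CPM in ac-CYB5R3–KO hearts and between 0.699 and 3.41 CPM in ac-WT hearts. For Scd1, Fads1, Fads2 and Elovl1 all ac-CYB5R3–KO hearts lie within the ac-WT range, and for Fads3, Elovl5 and Elovl6 most of them do.

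Transcript levels differed widely between the enzymes. Per kilobase of exon, the scale on which genes can be compared, Fads3 was highest (13.0 ± 3.34 CPM per kb, SD over 12 hearts), followed by Elovl5 (7.94 ± 1.18), Fads1 (7.62 ± 1.45), Elovl1 (7.21 ± 1.04), Fads2 (5.67 ± 1.24), Scd2 (5.36 ± 1.93) and Scd1 (3.35 ± 0.637). Scd4 (0.308 ± 0.246), Elovl6 (0.203 ± 0.0554) and Elovl7 (0.0466 ± 0.0194) were far below them. Neighbours in this order were often not separated from heart to heart: Elovl5 exceeded Fads1 in 4 of 6 ac-WT and 2 of 6 ac-CYB5R3–KO hearts, and Fads2 exceeded Scd2 in 5 and 3. Fads3 exceeded Elovl5 in 5 of 6 ac-WT and 6 of 6 ac-CYB5R3–KO hearts. The step from Scd1 down to Scd4 and the step from Elovl6 down to Elovl7 were the 2 places where the ranges over all 12 hearts did not overlap. Scd4 lay above Elovl6 in 5 of 6 ac-WT hearts (0.464 ± 0.267 and 0.211 ± 0.0569 CPM per kb, SD, n = 6) but in 3 of 6 ac-CYB5R3–KO hearts (0.153 ± 0.0663 and 0.196 ± 0.0581). Exon lengths came from an older set of gene models, and the short model of Fads2 (1508 bp) raises its place in this order.

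**Figure D2:**
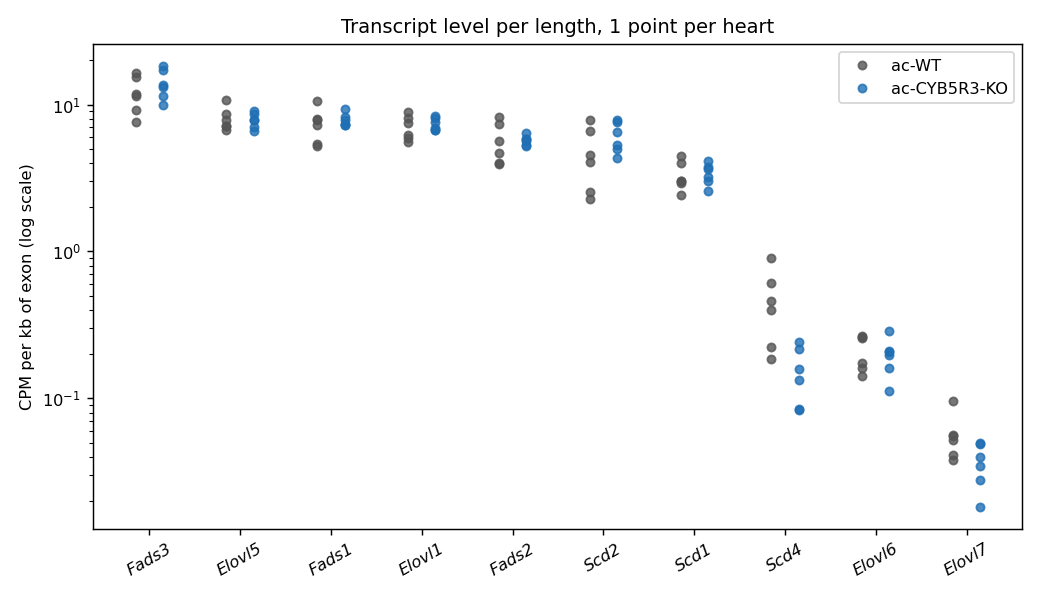
TMM-normalized CPM per kb of exon on a log axis for the 10 genes, ordered by their mean over 12 hearts (1 point per heart, ac-WT in gray and ac-CYB5R3–KO in blue). The 7 genes from Fads3 to Scd1 form an upper band and Scd4, Elovl6 and Elovl7 lie below it, and Scd4 is the gene whose groups are drawn furthest apart.

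Scd genes encode the enzymes that place the first double bond in palmitoyl-CoA and stearoyl-CoA to give palmitoleate and oleate. Scd1 is best known from liver and adipose tissue, Scd2 from brain and lung, and Scd4 as an isoform found in heart. The 3 genes lie within 114.0 kb of chromosome 19 (NCBIM37): Scd2 at chr19:44368166-44381354 on the plus strand, Scd4 at chr19:44407582-44421233 on the plus strand and Scd1 at chr19:44468941-44482199 on the minus strand.

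Scd4 was the member with the largest difference. Its CPM values were 0.848, 0.699, 2.30, 1.72, 1.49 and 3.41 in ac-WT mice 1 to 6 and 0.598, 0.499, 0.812, 0.314, 0.319 and 0.916 in ac-CYB5R3–KO mice 1 to 6. Of the ac-CYB5R3–KO hearts 4 lay below every ac-WT heart, and of the ac-WT hearts 4 lay above every ac-CYB5R3–KO heart, with ac-WT mice 1 and 2 inside the range of the other group. The mean was 1.75 ± 1.01 CPM in ac-WT and 0.576 ± 0.250 CPM in ac-CYB5R3–KO hearts (both SD over 6 mice). The log2 fold change was -1.60 ± 0.40 (SE, 95% interval -2.45 to -0.75), a ratio of 0.329 with an interval of 0.183 to 0.593. It had an unadjusted edgeR p of 0.00123 and an adjusted p of 0.173, and ranked 122 among 17847 genes by p. An exact permutation test of the mouse labels on log2(CPM + 1) gave p = 0.0108 (two-sided, n = 6 mice per group, where 0.00216 is the smallest possible p).

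The lower level of Scd4 was present under each of 20 other analyses, with log2 fold changes from -1.78 to -1.29 and an unadjusted p under 0.05 in all 20. The adjusted p ran from 0.00955 to 0.399 and was under 0.05 in DESeq2, which called 437 genes in all, and in none of the other 19. Without ac-WT mice 2 and 3 the log2 fold change was -1.68 (edgeR, unadjusted p = 0.00104, adjusted p = 0.228). These values rest on few reads, 20 to 180 per ac-WT library and 16 to 48 per ac-CYB5R3–KO library.

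**Figure D3:**
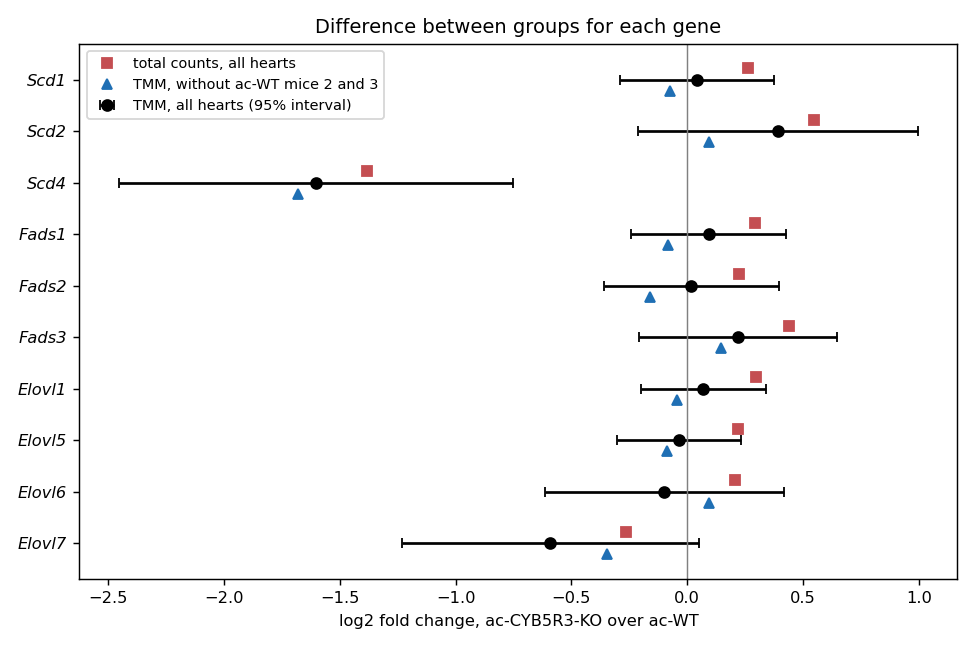
Log2 fold change of each gene, ac-CYB5R3–KO over ac-WT (TMM with its 95% interval over all 12 hearts in black, scaling by total counts in red, without ac-WT mice 2 and 3 in blue). The interval of Scd4 (-2.45 to -0.75) is the 1 that does not reach 0, and the red points lie to the right of the black ones, as does the median of all genes, from -0.01 to 0.26.

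Scd1 and Scd2 made up most of the Scd reads and did not pass the test. Scd1 ranged from 11.6 (median 14.5) to 21.5 CPM among ac-WT hearts and from 12.6 (median 16.6) to 20.0 CPM in ac-CYB5R3–KO hearts. All ac-CYB5R3–KO hearts lay inside the ac-WT range. The log2 fold change of Scd1 was 0.04 ± 0.16 (SE, 95% interval -0.29 to 0.38, edgeR adjusted p = 0.913), a ratio of 1.03 with an interval of 0.818 to 1.30. Scd2 ranged from 12.4 (median 23.5) to 42.6 CPM among ac-WT hearts and from 23.6 (median 32.0) to 42.7 CPM in ac-CYB5R3–KO hearts. Of the ac-WT hearts 3 lay below every ac-CYB5R3–KO heart, among them mice 2 and 3 at 12.4 and 13.8 CPM. Its log2 fold change was 0.39 ± 0.28 (SE, 95% interval -0.21 to 0.99, edgeR adjusted p = 0.528). Without ac-WT mice 2 and 3 it was 0.09 (edgeR, unadjusted p = 0.667), and without ac-WT mouse 6, the highest control, it was 0.60 (unadjusted p = 0.0378). With the mouse number as a block, which no label ties to a litter or batch, it was 0.50 (edgeR, unadjusted p = 0.00835, adjusted p = 0.260).

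A ratio of reads within a library does not depend on how libraries are scaled. Scd4 took 1.51%, 2.82%, 7.61%, 4.45%, 3.66% and 5.04% of the reads of Scd1, Scd2, Scd3 and Scd4 together in ac-WT mice 1 to 6, and 0.989%, 1.36%, 1.87%, 0.588%, 0.729% and 1.44% in ac-CYB5R3–KO mice 1 to 6. The groups overlapped only through ac-WT mouse 1 (1.51%, exact Clopper-Pearson 95% interval 1.10 to 2.02) and ac-CYB5R3–KO mouse 3 (1.87%, 1.38 to 2.47). The other 5 ac-WT hearts lay above every ac-CYB5R3–KO heart. The shares rest on 708 to 3574 Scd reads per heart, and the intervals cover counting error only. Scd2 took 45.5% to 63.9% of the reads in ac-WT hearts and 62.1% to 69.0% in ac-CYB5R3–KO hearts, with Scd1 at 31.7% to 47.0% and 30.0% to 35.9%. Scd3, at most 17 reads in any heart, was too low to be tested. Because the 4 genes are close paralogs, reads could have been divided among them by the authors' counting. Summed to 1 feature, they had a log2 difference of 0.22 ± 0.23 (SE) and an edgeR adjusted p of 0.660, a sum in which Scd4 carried little weight.

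**Figure D4:**
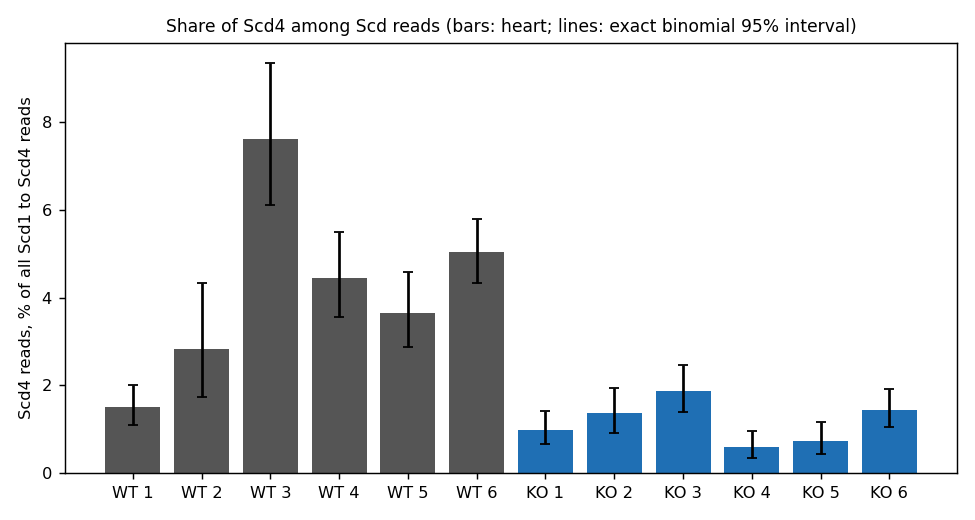
Share of Scd4 among the reads of Scd1 to Scd4 in each heart, in percent (bars in gray for ac-WT and blue for ac-CYB5R3–KO, lines for the exact binomial 95% interval). The ac-CYB5R3–KO hearts lie between 0.588% and 1.87% and the ac-WT hearts between 1.51% and 7.61%.

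Promoter sequence was compared for Scd4, the gene that was lower, and for 2 members that were not called, Fads3 and Elovl1. RefSeq windows of 250 bases before the transcription start (GRCm38.p6) were matched for 7 of the 10 genes, with 2 windows for Elovl1, and Scd1, Scd2 and Fads1 were not among them. Each window was searched on both strands for TCACNCCAC, a form of the sterol regulatory element that SREBP proteins bind, for CCAAT, the NF-Y box, and for GGGCGG, the Sp1 box. The windows below run 5′ to 3′ on the plus strand, Scd4 at chr19:44333076-44333325, Fads3 at chr19:10041298-10041547 and Elovl1 (its first window) at chr4:118427843-118428092. Capitals mark CCAAT and GGGCGG or their complements, ATTGG and CCGCCC, and in Elovl1 a CCGCCC and a CCAAT overlap.
Scd4: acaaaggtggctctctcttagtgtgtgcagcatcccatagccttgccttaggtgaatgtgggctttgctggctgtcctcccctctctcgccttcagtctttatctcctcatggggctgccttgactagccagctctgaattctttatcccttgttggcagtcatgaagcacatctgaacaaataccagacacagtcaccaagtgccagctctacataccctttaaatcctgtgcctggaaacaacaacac
Fads3: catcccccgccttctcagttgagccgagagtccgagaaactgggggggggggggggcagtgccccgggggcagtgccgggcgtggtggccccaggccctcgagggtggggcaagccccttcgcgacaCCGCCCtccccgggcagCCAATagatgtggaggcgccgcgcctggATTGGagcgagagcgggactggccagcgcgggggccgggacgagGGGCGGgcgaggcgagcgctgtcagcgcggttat
Elovl1: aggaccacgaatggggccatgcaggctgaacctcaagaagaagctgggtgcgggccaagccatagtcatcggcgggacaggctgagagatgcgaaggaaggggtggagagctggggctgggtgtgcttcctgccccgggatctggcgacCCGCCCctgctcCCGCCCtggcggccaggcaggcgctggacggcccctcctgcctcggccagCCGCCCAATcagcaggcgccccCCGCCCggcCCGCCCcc

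The Scd4 window held neither CCAAT nor GGGCGG and had a GC content of 49.6%, near the median of 52.4% over 32544 windows of all genes. Fads3 held 2 CCAAT and 2 GGGCGG boxes at 74.4% GC, and Elovl1 held 1 CCAAT and 5 GGGCGG boxes at 72.0% GC. The second Elovl1 window held 2 GGGCGG boxes. Of the others, Elovl5 held 2 CCAAT boxes, Elovl7 held 3 GGGCGG boxes, Fads2 held 1 GGGCGG box and Elovl6 held none of the 3 motifs. TCACNCCAC was found in 0 of the 8 windows and in 1.045% of all windows, CCAAT in 33.8% and GGGCGG in 32.962% of all windows. These are matches of letters in a short window and say nothing of binding.

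The Fads genes encode front-end desaturases. Fads2 opens the pathway from linoleate and α-linolenate to longer polyunsaturated chains, Fads1 places the last double bond of arachidonate, and Fads3 acts on sphingoid bases. They form a cluster of 155.3 kb on chromosome 19 (NCBIM37), with Fads3 at chr19:10116038-10134161 and Fads1 at chr19:10257378-10271360 on the plus strand and Fads2 at chr19:10138654-10175993 on the minus strand.

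None of the 3 Fads genes passed the test. Fads1 ranged from 18.0 (median 26.2) to 36.3 CPM among ac-WT hearts and from 24.9 (median 26.3) to 32.0 CPM in ac-CYB5R3–KO hearts. The medians were alike, and ac-WT mice 2 and 3 (18.0 and 18.6 CPM) lay below every other heart. Its log2 fold change was 0.09 ± 0.16 (SE, 95% interval -0.24 to 0.43, edgeR adjusted p = 0.802), and -0.08 without these mice (unadjusted p = 0.476). Fads2 ranged from 5.97 (median 7.73) to 12.4 CPM among ac-WT hearts and from 7.93 (median 8.60) to 9.69 CPM in ac-CYB5R3–KO hearts. The ac-CYB5R3–KO hearts lay inside the ac-WT range, with 3 ac-WT hearts below and 2 above all of them. Its log2 fold change was 0.02 ± 0.18 (SE, 95% interval -0.36 to 0.40, edgeR adjusted p = 0.971), and -0.16 without ac-WT mice 2 and 3 (unadjusted p = 0.280). Fads3 ranged from 24.9 (median 38.2) to 53.6 CPM among ac-WT hearts and from 32.6 (median 43.7) to 59.8 CPM in ac-CYB5R3–KO hearts. Most hearts of both groups shared a range, with 2 ac-WT hearts below it and 2 ac-CYB5R3–KO hearts above it. Its log2 fold change was 0.22 ± 0.20 (SE, 95% interval -0.21 to 0.65, edgeR adjusted p = 0.615).

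Elovl1 lengthens saturated and monounsaturated chains for sphingolipids, Elovl5 lengthens the polyunsaturated chains that Fads1 and Fads2 act on, Elovl6 carries palmitate to stearate, and Elovl7 acts on saturated long chains. They lie apart from each other in NCBIM37, at chr4:118100698-118105558 (Elovl1), chr9:77765171-77832326 (Elovl5), chr3:129235304-129341413 (Elovl6) and chr13:109004598-109077299 (Elovl7), all on the plus strand. Elovl1 overlaps Cdc20 on the opposite strand by 53 bp, and reads there could belong to either gene if strand was not used in counting.

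Elovl1 ranged from 15.2 (median 18.7) to 24.3 CPM among ac-WT hearts and from 18.2 (median 19.8) to 22.7 CPM in ac-CYB5R3–KO hearts. The groups overlapped, with 3 ac-WT hearts below all ac-CYB5R3–KO hearts and 1 above them. The log2 fold change was 0.07 ± 0.12 (SE, 95% interval -0.20 to 0.34, edgeR adjusted p = 0.814). Elovl5 ranged from 23.7 (median 26.5) to 37.8 CPM among ac-WT hearts and from 23.2 (median 27.7) to 31.9 CPM in ac-CYB5R3–KO hearts. Apart from ac-WT mouse 1, the highest, and ac-CYB5R3–KO mouse 2, the lowest, the hearts of both groups shared a range. The log2 fold change was -0.03 ± 0.12 (SE, 95% interval -0.30 to 0.23, edgeR adjusted p = 0.912), among the narrowest intervals of the 10 genes.

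Elovl6 and Elovl7 were measured on few reads, 39 to 86 and 5 to 16 per library. Elovl6 ranged from 0.851 (median 1.29) to 1.58 CPM among ac-WT hearts and from 0.671 (median 1.20) to 1.71 CPM in ac-CYB5R3–KO hearts. The ac-CYB5R3–KO group held both the lowest and the highest heart, and the log2 fold change was -0.10 ± 0.24 (SE, 95% interval -0.62 to 0.42, edgeR adjusted p = 0.868). Elovl7 ranged from 0.207 (median 0.293) to 0.524 CPM among ac-WT hearts and from 0.0997 (median 0.202) to 0.271 CPM in ac-CYB5R3–KO hearts. Of the ac-WT hearts 4 lay above all ac-CYB5R3–KO hearts and 2 inside their range. Its log2 fold change was -0.59 ± 0.30 (SE, 95% interval -1.23 to 0.05), with an unadjusted edgeR p of 0.0674 and an adjusted p of 0.375. The exact permutation test on log2(CPM + 1) gave p = 0.0455 (two-sided, n = 6 mice per group). Without ac-WT mice 2 and 3 the log2 fold change was -0.34 (unadjusted p = 0.277), and the unadjusted edgeR p was 0.0472 without ac-WT mouse 4 and 0.0484 without ac-CYB5R3–KO mouse 3, with log2 fold changes of -0.69 and -0.70.

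The spread between mice was itself uneven. The coefficient of variation was larger in ac-WT than in ac-CYB5R3–KO hearts for 9 of the 10 genes, all but Elovl6, and for 8 of 10 without ac-WT mice 2 and 3. Fads2 varied by 31.7% in ac-WT and 7.42% in ac-CYB5R3–KO hearts, Fads1 by 26.6% and 10.1%, Scd2 by 47.5% and 24.0%, and Scd4 by 57.6% and 43.4%. No test was made of these differences. Mice 2 and 3 were the 2 lowest ac-WT hearts for 5 genes (Scd1, Scd2, Fads1, Fads2 and Elovl1), and for the last 4 of these they were below all of the other 10 hearts. With them left out, the fold change of Scd1, Fads1, Fads2 and Elovl1 turned from above to below 0 and that of Elovl6 from below to above 0, with none past the threshold, and the median over the 10 genes was -0.08. How much these libraries contributed to the differences was not tested.

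Within groups, several desaturases moved together from heart to heart. Pearson's r was computed over 12 hearts on deviations of log2(CPM + 1) from the group mean for all 45 pairs, with 100000 permutations within groups and Benjamini-Hochberg adjustment. Of the 45 pairs 4 had an adjusted permutation p under 0.05, all with positive r, and 3 by Spearman's rho. Scd1 and Scd2 gave r = 0.925 (adjusted permutation p = 0.00225) and rho = 0.923 (adjusted permutation p = 0.0130), with r = 0.864 after leaving out the 2 hearts farthest from the median and 0.969 without ac-WT mice 2 and 3. Scd2 and Fads2 gave r = 0.891 (adjusted permutation p = 0.0326) and rho = 0.881 (adjusted permutation p = 0.0187), and r = 0.821 and 0.748 after the same omissions. Scd1 and Fads2 gave r = 0.804 (adjusted permutation p = 0.0326) and rho = 0.811 (adjusted permutation p = 0.0415), and r = 0.668 and 0.735 after them. Scd2 and Fads1 gave r = 0.876 (adjusted permutation p = 0.0326), while rho = 0.811 did not pass (adjusted permutation p = 0.0643), and r was 0.739 and 0.654 after them. Scd4 was in none of these pairs, its highest r being with Fads3 (0.777, adjusted permutation p = 0.0655). Both genes of a pair were read from the same libraries, and anything that shifted a whole library would move them together.

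Among all genes tested, the gene most like each member by the same measure had r between 0.901 and 0.977. Each is the highest value over all genes tested and carries no p. The gene most like Scd4 was Htr2b, a serotonin receptor (r = 0.914, rho = 0.923, and r = 0.889 without the 2 farthest hearts). For Scd1 it was Tgfb1, the growth factor TGF-β1 (r = 0.948, rho = 0.958), and for Scd2 the unnamed gene ENSMUSG00000104126 (r = 0.956, rho = 0.937). For Fads1, Fads2 and Fads3 it was Pafah1b2 (r = 0.957), Wapal (r = 0.951) and Itgb1bp3 (r = 0.977, rho = 0.965). For the elongases it was 1810055G02Rik with Elovl1 (r = 0.962), Nid2 with Elovl5 (r = 0.939), ENSMUSG00000117729 with Elovl6 (r = 0.903) and March2 with Elovl7 (r = 0.901), the last of which had r = 0.738 without the 2 farthest hearts.

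The genes around these enzymes were taken as lists of the pathway. Of the other fatty acyl desaturases and elongases, 3 of 7 had enough reads (Fads6, Degs1 and Elovl4), with 0 called and a median log2 fold change of 0.11. Scd3, Degs2, Elovl2 and Elovl3 were not tested. Of the 6 other enzymes of the elongation cycle, 1 was lower and 0 higher at an unadjusted p under 0.05 (median 0.01): Tecr, the reductase of the last step, at 120 ± 56.2 CPM in ac-WT and 78.8 ± 17.9 CPM in ac-CYB5R3–KO hearts (SD, n = 6), with a log2 difference of -0.61 ± 0.27 (SE) and an edgeR adjusted p of 0.315. The call was lost in 10 of 20 other analyses, among them those without ac-WT mouse 1, 2 or 3 and those without ac-CYB5R3–KO mouse 1, 3, 4 or 6. Without both ac-WT mice 2 and 3, the 2 highest hearts for Tecr, the log2 fold change was -0.14 (unadjusted p = 0.481). The median of these 6 enzymes was then -0.085.

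In the electron supply, 1 of 7 genes was lower and 0 higher (median 0.04, and -0.03 without ac-WT mice 2 and 3), and the 1 was Cyb5r3. Cyb5a, the microsomal cytochrome b5 that passes electrons to desaturases, was at 44.5 ± 5.78 CPM in ac-WT and 45.6 ± 1.83 CPM in ac-CYB5R3–KO hearts (SD, n = 6). Its log2 fold change was 0.04, with a 95% interval of -0.17 to 0.24 (edgeR, adjusted p = 0.885). Without ac-WT mice 2 and 3 it was -0.03 (edgeR, unadjusted p = 0.711). Cyb5b, the cytochrome b5 of the outer mitochondrial membrane, was at 31.3 ± 3.39 and 35.0 ± 4.22 CPM, a log2 fold change of 0.16 with an interval of -0.06 to 0.39 (edgeR, adjusted p = 0.487). Of 5 other enzymes served by or fused to cytochrome b5, 4 were tested and 0 called (median 0.19), with Fa2h at no more than 3 reads.

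Of 17 regulators of the SREBP, LXR and PPAR pathways, 2 were lower and 1 higher at an unadjusted p under 0.05 (median 0.01), and 0 at an adjusted p under 0.05. Ppara, the nuclear receptor of fatty acid oxidation, was at 1.83 ± 1.03 CPM in ac-WT and 0.835 ± 0.136 CPM in ac-CYB5R3–KO hearts (SD, n = 6), with a log2 difference of -1.12 ± 0.32 (SE) and an edgeR adjusted p of 0.184. With ac-WT mice 2 and 3 left out, which were at 3.11 and 3.19 CPM, the difference was -0.48 (unadjusted p = 0.0240). Mlxipl, the glucose-responsive factor ChREBP, was at 10.8 ± 7.04 and 4.998 ± 1.93 CPM, with a log2 difference of -1.11 ± 0.46 (SE) and an edgeR adjusted p of 0.290. Its call was kept in 10 of 20 other analyses. It was lost without ac-WT mouse 2, 3 or 4 or ac-CYB5R3–KO mouse 1, 2 or 4, and by limma-voom, total-count scaling and the replicate block. With both ac-WT mice 2 and 3 left out the log2 difference of Mlxipl was -0.55 (unadjusted p = 0.253). Mid1ip1, an activator of acetyl-CoA carboxylase, was higher, at 23.1 ± 5.58 and 32.0 ± 6.29 CPM, with a log2 difference of 0.47 ± 0.17 (SE) and an edgeR adjusted p of 0.244 and an unadjusted p under 0.05 in 20 of 20 other analyses. Srebf1, the gene of the SREBP-1 factors that drive desaturase transcription, was at 14.6 ± 2.15 and 15.6 ± 2.80 CPM, a log2 fold change of 0.09 with a 95% interval of -0.19 to 0.38 (edgeR, adjusted p = 0.767).

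**Figure D5:**
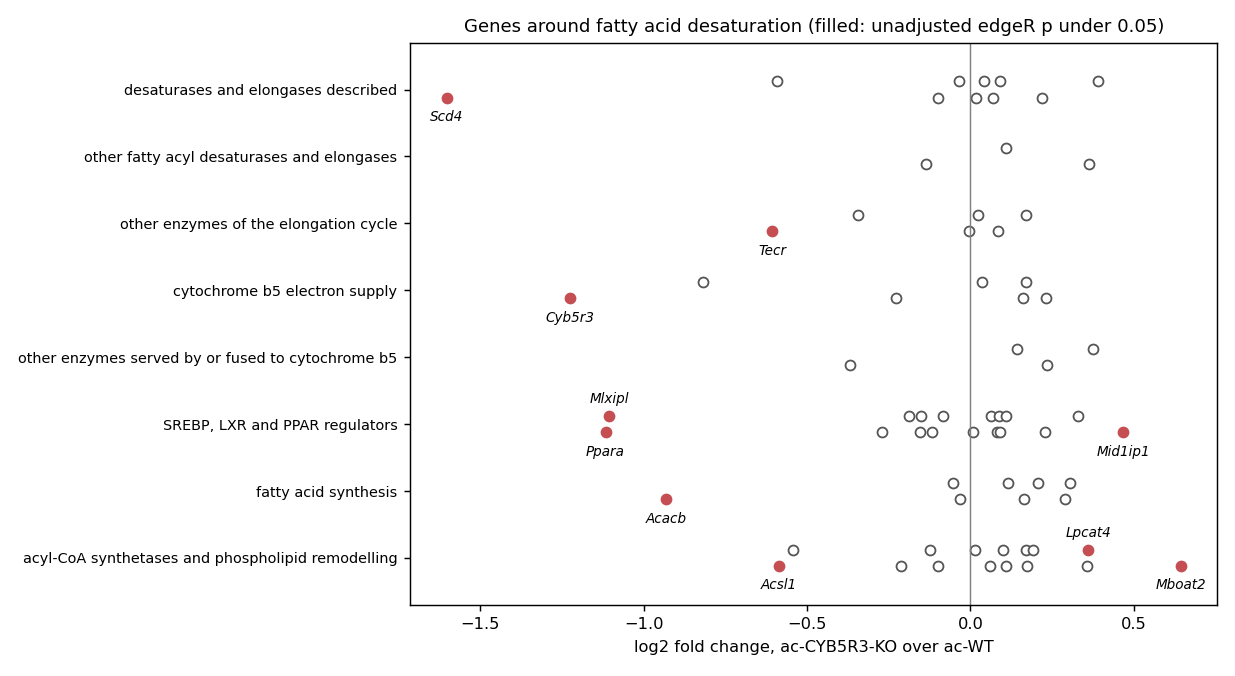
Log2 fold change of each tested gene of the pathway lists, ac-CYB5R3–KO over ac-WT (1 point per gene, rows are lists, filled red where unadjusted edgeR p under 0.05). Scd4 (-1.60) lies furthest to the left of all genes drawn, followed by Cyb5r3 (-1.22), and the medians of the lists lie between 0.01 and 0.19.

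Of 9 genes of fatty acid synthesis, 8 were tested, with 1 lower and 0 higher (median 0.14). Acacb, the acetyl-CoA carboxylase whose product restrains mitochondrial fatty acid uptake, was at 70.3 ± 42.5 CPM in ac-WT and 36.8 ± 7.86 CPM in ac-CYB5R3–KO hearts (SD, n = 6), with a log2 difference of -0.93 ± 0.32 (SE) and an edgeR adjusted p of 0.225. Without ac-WT mice 2 and 3, its 2 highest hearts, the log2 fold change was -0.27 (unadjusted p = 0.183). Of 15 acyl-CoA synthetases and enzymes of phospholipid remodelling, 1 was lower and 2 were higher (median 0.10). Acsl1, the main acyl-CoA synthetase of heart, was at 130 ± 42.2 and 86.4 ± 23.7 CPM, with a log2 difference of -0.59 ± 0.22 (SE) and an edgeR adjusted p of 0.258. Its call was lost without ac-WT mouse 2 or 3. It was also lost by total-count scaling (-0.23, edgeR unadjusted p = 0.226, and -0.49 relative to the median of all genes). Mboat2, a lysophospholipid acyltransferase, was at 6.21 ± 1.67 and 9.73 ± 3.78 CPM, with a log2 difference of 0.64 ± 0.25 (SE) and an edgeR adjusted p of 0.258, and was 0.47 without ac-CYB5R3–KO mouse 2 (unadjusted p = 0.0612). Lpcat4, a further lysophospholipid acyltransferase, was at 2.60 ± 0.507 and 3.35 ± 0.511 CPM, with a log2 difference of 0.36 ± 0.16 (SE) and an edgeR adjusted p of 0.310, and its call was lost without ac-WT mouse 2, 3 or 6 or ac-CYB5R3–KO mouse 1, 3 or 4. Without both ac-WT mice 2 and 3, Acsl1, Mboat2 and Lpcat4 had log2 fold changes of -0.26, 0.52 and 0.23, with none past the threshold.

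Marker lists of the cell types of the tissue were measured in the same hearts. The 12 cardiomyocyte markers were all expressed, and 4 of them (Myh6, Myl2, Myl3 and Tnni3) were lower at an unadjusted p under 0.05 with 0 higher. Their median log2 fold change was -0.36 and their summed level 24693 to 56639 CPM in ac-WT and 18405 to 30569 CPM in ac-CYB5R3–KO hearts, with ac-WT mice 2 and 3 highest at 56639 and 44432 CPM. Without these mice, a calculation added after the data were seen, 2 cardiomyocyte markers (Myl2 and Tnni3) were lower, the median was -0.04 and the ac-WT sums were 24693 to 28460 CPM. Of 8 white adipocyte markers 2 were tested and 0 called. The sum over the list, mostly Fabp4, was 423 to 827 CPM in ac-WT and 474 to 873 CPM in ac-CYB5R3–KO hearts. Of 6 brown adipocyte markers 3 were tested and 2, Cox8b and Ppargc1b, were lower, with or without ac-WT mice 2 and 3. The other 3, Ucp1, Elovl3 and Otop1, had at most 3, 4 and 1 reads in any heart. Whether the Cox8b and Ppargc1b reads came from adipocytes was not tested. Some adipocyte markers were raised in single hearts. Cfd had 82 reads in ac-WT mouse 2, 80 in ac-CYB5R3–KO mouse 3 and at most 11 in any other heart, Adipoq had 16, 1 and at most 2 reads, Cidec had 17, 6 and at most 2, and Plin1 had 8, 4 and at most 4. The part of adipocyte RNA in the values of the desaturases was not tested.

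Of the 8 fibroblast, 8 endothelial, 8 macrophage and 6 mesothelial markers, 0 were called, whereas without ac-WT mice 2 and 3 2 fibroblast markers (Col3a1 and Lum) and 3 macrophage markers (Cd68, Adgre1 and Lyz2) were lower. Of 8 smooth muscle and pericyte markers 3 were higher and 2 lower, and 2 and 2 without these mice. Of 5 red blood cell markers 3 were higher, with a median log2 fold change of 1.61 and sums of 222 to 4487 CPM in ac-WT and 1323 to 12228 CPM in ac-CYB5R3–KO hearts. Without ac-WT mice 2 and 3 all 5 were higher, with a median of 2.38. Of 8 Schwann cell and neuron markers 6 were tested and 3 were lower, and of 6 cartilage and airway markers 3 were tested and 2 were higher, the same counts as without these mice. The part of these shifts in the level of Scd4 was not tested.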

How the data were processed

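Whole-heart total RNA (6 ac-WT mice, 6 ac-CYB5R3–KO mice, 1 library each) was read as single 75 bp reads from a stranded kit. The authors trimmed reads with fastq-mcf and Trimmomatic, aligned them with STAR and deposited raw read counts per Ensembl gene, whole numbers without normalization. The study's methods name mm9 and FPKM values from Cufflinks and Cuffdiff, whereas the submitters' processing notes name GRCm39 and featureCounts. The annotation, the strand setting and the treatment of multimapping reads are not given in the sources used here. No count column was left unused (0).

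Groups came from the genotype labels. Counts were tested with edgeR 4.0.16 in R 4.3.3 (quasi-likelihood F test, TMM factors, filterByExpr with a minimum count of 10, no covariate) over 17847 genes, with Benjamini-Hochberg adjustment over all of them, and single genes also by exact permutation (two-sided) over the 924 divisions of the mice on log2(CPM + 1). DESeq2 1.42.0, limma-voom (limma 3.58.1), total-count scaling, DESeq2 size factors within edgeR, other filters, a replicate block and omitted mice were alternatives. The biological coefficient of variation was 26.5%, and depth gives the counting error only. On counts simulated from these libraries (17847 genes), changes were planted only in genes with a mean above 1 CPM. The edgeR fit recovered 75 of 100 such genes changed by 1 log2 unit and 98 of 100 changed by 2, with 12 false calls. DESeq2 recovered 88 and 99, with 48 false calls. Elovl7, at 0.308 CPM in ac-WT hearts, lay below that level, so the recovery does not cover it.

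Gene positions and exon lengths came from GENCODE vM1 on NCBIM37, matched by Ensembl identifier, and promoters from RefSeq on GRCm38.p6. All 10 members, every gene of the pathway lists with an unadjusted p under 0.05, Cyb5r3, Cyb5a, Cyb5b, Srebf1 and the gene most like each member were named. Members and lists were chosen with earlier results of these data known, so no p is given over a list. Hbb-bt and Hbb-bs were not matched, and Hacd1 to Hacd4, Cyb5a, Msmo1 and Adgre1 were matched through older symbols. Of the red blood cell markers, 1 is not reported here.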

Additional observations from a re-analysis of the deposited data

Results flagged for a closer look

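Elovl7 was 0.524 CPM in ac-WT mouse 2, whereas the next ac-WT heart was at 0.305 CPM, a gap of 0.691 of the group's range and above the critical value of Dixon's test for 6 samples. The heart held 15 Elovl7 reads. In all, 20 groups (10 genes in 2 groups) were examined, and chance alone marks about 1 in 20.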

How the results depend on the processing

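Scd4 kept its direction and an unadjusted p under 0.05 in 20 of 20 alternatives. By DESeq2 1 member (Scd4) had an adjusted p under 0.05, and 0 in the other 19 alternatives. Scaling by total counts moved the median of all genes to 0.26 and that of the members to 0.24, and turned Elovl5 to 0.22 and Elovl6 to 0.20. Relative to the median of all genes, Scd4 was then at -1.64. Without ac-WT mice 2 and 3 the log2 fold change was -0.075 for Scd1, -0.083 for Fads1, -0.163 for Fads2, -0.043 for Elovl1 and 0.093 for Elovl6, each with the other sign. The cause of these reversals was not tested. Leaving out 1 mouse at a time gave 1 to 2 members at an unadjusted p under 0.05 (2 without ac-WT mouse 4 or 6 or ac-CYB5R3–KO mouse 3), 0 at an adjusted p under 0.05 and a median log2 fold change from -0.02 to 0.11. Among all genes tested, an unadjusted p under 0.05 was then reached by 1888 of 18097 (without ac-WT mouse 2) to 3368 of 18022 (without ac-WT mouse 6). The ranges over the omitted mice were -0.022 to 0.15 for Scd1, 0.26 to 0.60 for Scd2, -1.78 to -1.29 for Scd4, 0.02 to 0.22 for Fads1, -0.055 to 0.16 for Fads2, 0.12 to 0.33 for Fads3, 0.02 to 0.15 for Elovl1, -0.079 to 0.066 for Elovl5, -0.24 to 0.021 for Elovl6 and -0.70 to -0.40 for Elovl7. With at least 10 counts required in every library Elovl7 was not tested. Another pseudocount or the CPM scale changed no call of the permutation test.

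Same-numbered mice of the 2 groups had a mean correlation of deviations of 0.133 (from -0.160 to 0.360 in the 6 pairs), whereas the 30 differently numbered pairs averaged -0.0255, and 6 of 12 hearts correlated best with their own number. No label says that a number marks a shared litter or batch, and 4 of the 6 pairs had a correlation over 0.1, short of all 6, so the mice were not treated as paired. Whether the numbers pair mice was not tested. With the replicate number as a block, 2 members (Scd2 and Scd4) had an unadjusted p under 0.05, against 2624 of all 17847 genes tested. Scd2 was then at 0.50 (edgeR, unadjusted p = 0.00835, adjusted p = 0.260). Genes at an adjusted p under 0.05 over all genes numbered 18 in the analysis reported, 437 by DESeq2, 2 by limma-voom, 8 by total counts, 8 by DESeq2 size factors, 35 without a filter, 2 with the block and 2 to 38 without 1 mouse. Depth limits Elovl7 (5 to 16 reads) and Scd4 most.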
